A study of Mus musculus with 20 samples.

Results

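The 8 genes described here encode liver enzymes that make NADPH or interconvert pentose phosphates: G6pdx, Pgd, H6pd, Rpia, Tkt, Taldo1, Me1 and Idh1. They were chosen by name for the reactions they catalyse and not by a rule on measured values, but with earlier results of these data known. They are 8 of the 46078 genes in the table of counts, and all 8 had enough counts to be among the 14759 genes tested.

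NADPH is the reducing agent with which cells regenerate glutathione and thioredoxin and build fatty acids and cholesterol, so its supply is drawn on both by defence against oxidants and by lipid synthesis in the liver. In the cytosol it comes from the oxidative branch of the pentose phosphate pathway, where glucose 6-phosphate dehydrogenase and 6-phosphogluconate dehydrogenase act, and from malic enzyme and cytosolic isocitrate dehydrogenase. The non-oxidative branch, with ribose 5-phosphate isomerase, transketolase and transaldolase, moves carbon between pentose phosphates and glycolysis without making NADPH. Several of these genes are known targets of NRF2, the transcription factor of the oxidative stress response (OSR), and several are known to be induced together with lipogenic genes.

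The data are mRNA sequencing counts from livers of 20 male mice on a 129/C57BL/6 background, at least 9 weeks old when the diets began. Cse, listed in the counts as Cth, encodes cystathionine γ-lyase, and Cse-/- mice, which lack this enzyme, cannot make cysteine and must eat it. Of the Cse+/- livers, 2 came from mice on the control diet, 4 from mice on a diet lacking cysteine (no-Cys) and 3 from mice on a diet lacking tryptophan (no-Trp). Of the Cse-/- livers, 4 were from no-Cys mice, 3 from no-Trp mice and 4 from no-Trp mice that also received BSO, an inhibitor of γ-glutamyl cysteine synthase and so of glutathione synthesis, at a dose not stated in the sources used here. All mice were calorie-restricted, first on the control diet and then also on the diets compared here. Livers were taken 2 days after the shift. The sample labels call the control genotype wild type, whereas the study's own list of mice calls it heterozygous, and the name Cse+/- is used here. No Cse-/- liver on the control diet was analysed here, so the diets can be compared in Cse-/- mice only with each other. Mice are given by their numbers (av01 to av22).

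Counts on genes ranged from 11785740 to 57986121 per library, with the 4 shallowest on the no-Cys diet (11785740 to 15436551 in its 8 libraries, against 14054270 to 57986121 in the other 12). Values are CPM, that is counts relative to library size after TMM scaling. Cth was between 88.4 and 332 CPM in the 9 Cse+/- livers and between 6.37 and 14.4 CPM in the 11 Cse-/- livers, as labelled. Among the Cse-/- no-Cys livers, av08 stood apart from the other 3: the chi-square per gene was 43.3 to 48.9 between av08 and each of them and 9.60 to 16.3 among them. Hepatocyte markers were high in every liver, with Alb at 25510 CPM or more. Fat-cell markers (Adipoq, Plin1, Lep, Cfd, Retn and Cidea), of which Lep was at 0 in all 20 livers, summed to at most 1.11 CPM in 18 livers, but to 15.8 CPM in the Cse-/- no-Trp liver av14 and 32.1 CPM in the Cse+/- no-Trp liver av17. Nnt, the mitochondrial transhydrogenase that some C57BL/6 strains lack, was present in all livers at 54.8 to 78.2 CPM.

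Per kilobase of exon, the highest of the 8 enzymes was Idh1 (cytosolic NADP+-dependent isocitrate dehydrogenase, ENSMUSG00000025950, minus strand, chr1:65158616-65186500 of GRCm38), with a median level of 116 CPM per kb over the 20 livers. H6pd followed at 74.5 CPM per kb (the endoplasmic reticulum counterpart of glucose 6-phosphate dehydrogenase, ENSMUSG00000028980, minus strand, chr4:149979475-150009023). Taldo1 (transaldolase, ENSMUSG00000025503, plus strand, chr7:141392199-141402968) was at 44.1, Me1 (cytosolic malic enzyme, ENSMUSG00000032418, minus strand, chr9:86581371-86695953) at 29.9 and Tkt (transketolase, ENSMUSG00000021957, plus strand, chr14:30548359-30574720) at 16.8 CPM per kb. Pgd (6-phosphogluconate dehydrogenase, ENSMUSG00000028961, minus strand, chr4:149149991-149166771) was at 5.94 CPM per kb. The lowest were G6pdx (glucose 6-phosphate dehydrogenase, the entry enzyme of the oxidative branch, ENSMUSG00000031400, minus strand, chrX:74409483-74429194) at 1.39 and Rpia (ribose 5-phosphate isomerase, ENSMUSG00000053604, minus strand, chr6:70765720-70792232) at 0.738 CPM per kb. In this order, the ranges over the 20 livers were separate between H6pd and Taldo1 and between Pgd and G6pdx, and overlapped between the other neighbours. Within single livers the order of neighbours was nevertheless the same in all 20, except that H6pd exceeded Idh1 in 1 liver and Me1 exceeded Taldo1 in 5. The length used is that of all annotated exons of a gene merged, such as 7355 bases for Tkt and 6447 for Pgd. The order depends on this length. In CPM not divided by length, the median was higher for H6pd (390) than for Idh1 (321). It was 123.5 for Tkt, 115.2 for Me1 and 95.6 for Taldo1.

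The depth behind these levels differed: G6pdx rested on 52 to 239 counts per library and Rpia on 39 to 230, whereas the other 6 had at least 347. Some reads cannot be given to a single gene. Of the 61-base words of the transcripts, 24.2% of those of Me1 also occur in other genes, mostly the pseudogenes Gm7049 and Gm48795, and 14.0% of those of G6pdx, mostly in Ikbkg, which overlaps 418 bases of its exons on the other strand. Ikbkg had 27862 counts over the 20 livers, so the low G6pdx level is uncertain in so far as the counting could not tell the strands apart. The share was 3.29% for Taldo1, 2.76% for Rpia, 0.155% for Pgd and 0 for Tkt, Idh1 and H6pd.

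**Figure D1:**
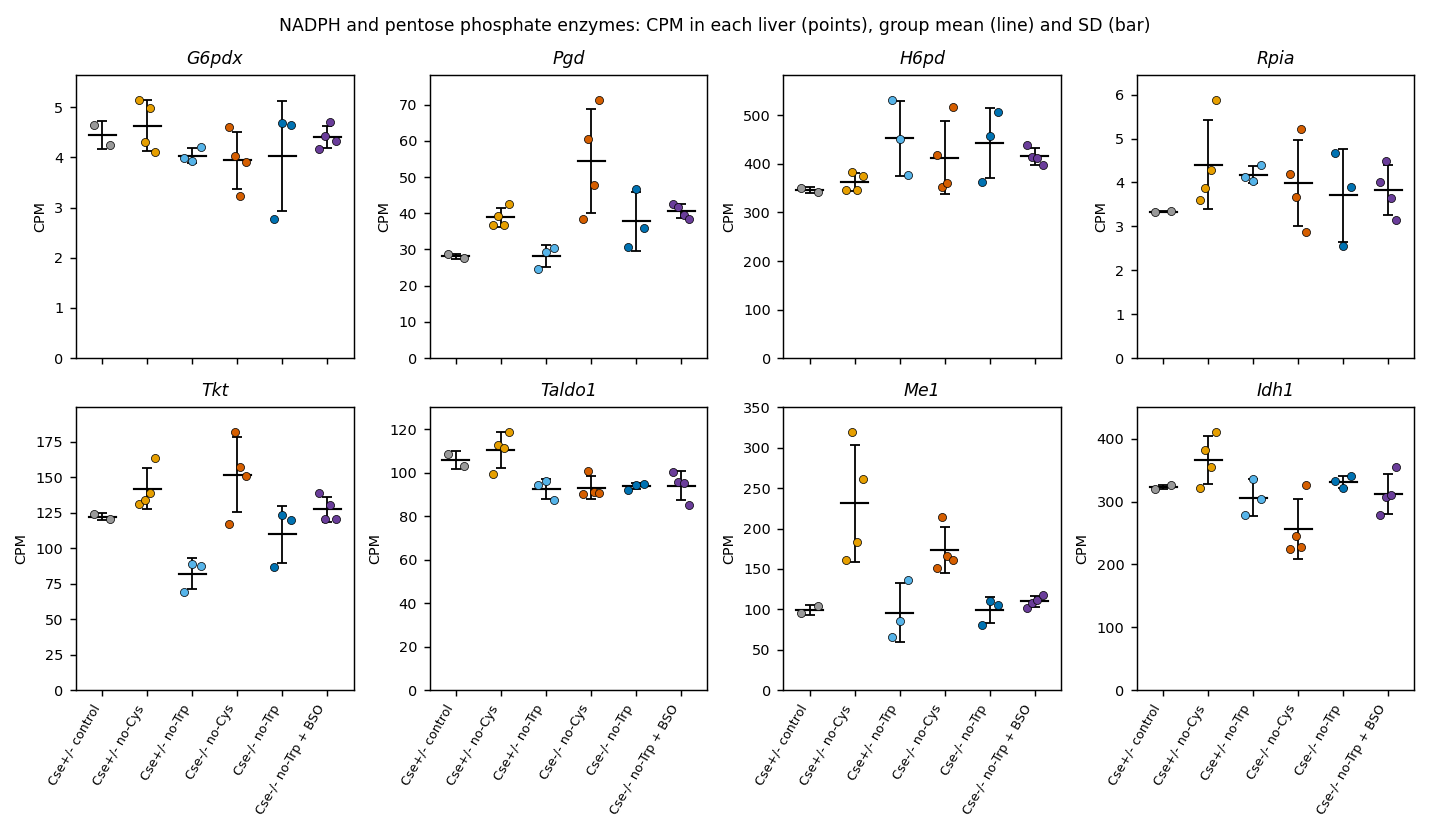
CPM of each of the 8 enzymes (vertical axes, from 0) in each liver, by genotype and diet. Points are livers, horizontal lines group means and bars the SD. Me1 is above 150 CPM in all 8 livers on the no-Cys diet and at most 136 CPM in the other 12. Idh1 has its lowest group mean in Cse-/- livers on the no-Cys diet, where av08 lies apart at 326 CPM. G6pdx stays between 2.76 and 5.14 CPM throughout.

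The first question is whether the enzymes differ between genotypes when dietary cysteine is missing. On the no-Cys diet Pgd was higher and Idh1 and Taldo1 were lower in Cse-/- than in Cse+/- livers, each by less than 1.5-fold, whereas G6pdx, H6pd, Rpia, Tkt and Me1 did not pass the test. A call is an adjusted p under 0.05 in edgeR's quasi-likelihood test, adjusted over all genes tested. Of the 8 enzymes, 1 was called higher, where 11.6% of all genes were, and 2 were called lower, where 12.2% of all genes were. The median log2 fold change of the 8 was −0.19, against −0.0093 over all genes tested.

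In the oxidative branch, Pgd passed the test and G6pdx did not. Pgd was at 36.9, 39.2, 36.7 and 42.5 CPM in the Cse+/- no-Cys livers and at 38.3, 60.4, 47.9 and 71.2 CPM in the Cse-/- no-Cys livers. The ranges overlap through av05, the lowest Cse-/- liver, while the other 3 Cse-/- livers lie above all Cse+/- livers. The log2 fold change of Pgd was 0.49 (SE 0.15), or 1.40-fold (95% interval 1.13 to 1.74, edgeR adjusted p = 0.0235). Without av01, av03, av06 or av08 it was 0.46, 0.46, 0.42 or 0.33 and the edgeR adjusted p was 0.0516, 0.0556, 0.0712 or 0.0934.

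G6pdx, the enzyme before Pgd in the pathway, was at 5.14, 4.30, 4.98 and 4.10 CPM in Cse+/- and at 4.60, 4.03, 3.23 and 3.91 CPM in Cse-/- livers on the no-Cys diet. The groups overlap, with the lowest value in a Cse-/- liver and the highest in a Cse+/- liver. Its log2 fold change was −0.23, with a 95% interval of −0.57 to 0.12 (edgeR adjusted p = 0.341). H6pd, which feeds NADPH to the endoplasmic reticulum from a separate pool, was at 346 to 383 CPM in Cse+/- and at 353 to 517 CPM in Cse-/- livers, the highest being av08. Its log2 fold change was 0.18 (95% interval −0.08 to 0.45, edgeR adjusted p = 0.305), and 0.06 to 0.26 when each liver was left out.

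In the non-oxidative branch, Taldo1 was at 99.4, 113, 111 and 119 CPM in Cse+/- no-Cys livers and at 90.3, 101, 91.4 and 90.5 CPM in Cse-/- no-Cys livers. Only av06 among the Cse-/- livers reaches the Cse+/- range. The difference was small, a log2 fold change of −0.25 (SE 0.075, edgeR adjusted p = 0.0225), and without av02, av04, av05 or av07 the edgeR adjusted p was 0.0555, 0.0684, 0.0761 or 0.0804. Tkt had a log2 fold change of 0.10 (95% interval −0.17 to 0.37) and Rpia of −0.14 (95% interval −0.58 to 0.29), with edgeR adjusted p of 0.629 and 0.657.

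Idh1 gave the firmest genotype difference of the 8. It was at 321, 382, 355 and 410 CPM in Cse+/- no-Cys livers and at 224, 246, 227 and 326 CPM in Cse-/- no-Cys livers. Of the Cse-/- livers, 3 lie below all the other livers analysed here, and av08 overlaps the lowest Cse+/- liver. The fold was 0.697 (95% interval 0.590 to 0.823), a log2 fold change of −0.52 (SE 0.12, edgeR adjusted p = 0.00286). The call held when each of the 8 livers was left out and under each of 7 other settings, with edgeR or DESeq2 adjusted p between 1.20e-04 and 0.0202.

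Me1, the malic enzyme that makes cytosolic NADPH for fatty acid synthesis, was at 161, 319, 184 and 261 CPM in Cse+/- and at 151, 215, 166 and 161 CPM in Cse-/- livers on the no-Cys diet. The groups overlap widely and the Cse+/- livers vary the more. Its log2 fold change was −0.42 with a 95% interval of −0.85 to 0.01 (edgeR adjusted p = 0.149), and −0.22 without av02, the liver with 319 CPM (edgeR adjusted p = 0.48).

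Markers of other cells moved in the same comparison. Red-cell genes, among them Hba-a1, Hba-a2, Hbb-bs, Hbb-bt and Alas2, summed to 201 to 406 CPM in Cse+/- and 69.1 to 114 CPM in Cse-/- no-Cys livers, with 5 of the 5 tested called lower. Bile duct markers summed to 46.1 to 57.95 and 16.4 to 28.8 CPM, with 2 of 5 tested called lower. The 8 hepatocyte markers summed to 96010 to 120200 and 50740 to 80300 CPM, with 4 called lower and 1 higher. Of the other lists, 2 of 6 stellate cell or fibroblast markers, 1 of 8 Kupffer cell markers and 1 of 5 leukocyte markers were called lower, and 1 of 6 endothelial markers was called higher. The sums were 197 to 237 and 156 to 197 CPM for stellate cells, 292 to 365 and 248 to 302 CPM for Kupffer cells, 7.996 to 13.7 and 6.49 to 8.07 CPM for leukocytes, and 157 to 195 and 155 to 169 CPM for endothelial cells. The part of these in the results on Pgd, Taldo1 and Idh1 was not tested, and in bulk tissue fewer cells of a type and less RNA per cell cannot be told apart.

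**Figure D2:**
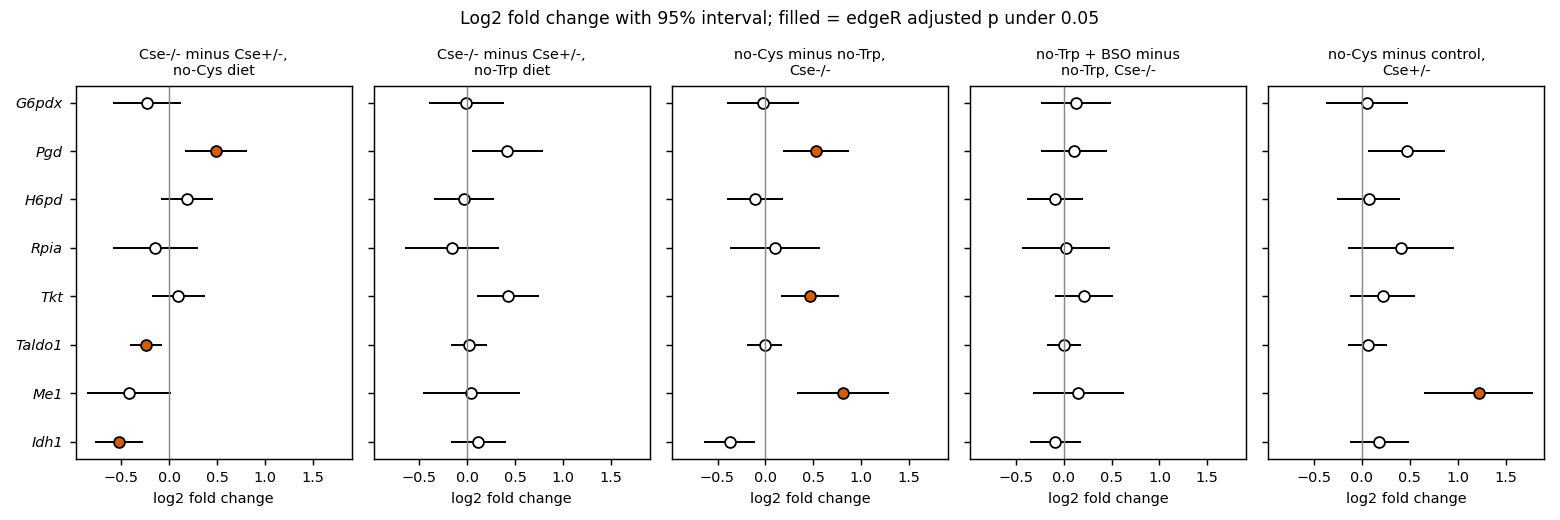
Log2 fold change (horizontal axes) of the 8 enzymes in 5 comparisons, with bars for the 95% interval and filled points for an edgeR adjusted p under 0.05. Pgd is to the right of 0 in all 5 panels, G6pdx has intervals that cover 0 in each, and Me1 is farthest to the right in no-Cys against control livers of Cse+/- mice, at 1.22.

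The same genotype comparison on the no-Trp diet asks what the knockout does when an amino acid other than cysteine is missing. None of the 8 enzymes was called by edgeR, where 1.4% of all genes were called in the higher and 1.24% in the lower direction. Pgd and Tkt, 2 of the 8, had an unadjusted p under 0.05, as did 18.4% of all genes, and DESeq2 called 0 of the 8 and 5.35% of all genes. Pgd was at 24.7, 29.3 and 30.5 CPM in Cse+/- and at 30.7, 46.8 and 35.8 CPM in Cse-/- no-Trp livers. The groups do not overlap, although by only a narrow gap, as was the case for 19.6% of all genes tested, and the log2 fold change was 0.42 (95% interval 0.06 to 0.78, edgeR adjusted p = 0.196), or 0.23 without av15 (edgeR adjusted p = 0.638). Tkt was at 69.4, 89.2 and 87.3 CPM in Cse+/- and 86.8, 123 and 120 CPM in Cse-/- no-Trp livers. The lowest Cse-/- liver, av14, falls inside the Cse+/- range, and the log2 fold change of Tkt was 0.42 (95% interval 0.11 to 0.73, edgeR adjusted p = 0.135). Without av14 and its fat-cell markers the log2 fold change of Tkt was 0.55 (edgeR adjusted p = 0.0505), and without av17 it was 0.32 (edgeR adjusted p = 0.296). The log2 fold changes of the other 6 were between −0.16 and 0.11.

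Whether the genotype difference itself depends on the missing amino acid was tested as the interaction of genotype with the no-Cys and no-Trp diets. For Idh1 the difference was larger on the no-Cys diet. Its interaction was −0.63 on the log2 scale (SE 0.18, edgeR adjusted p = 0.045), made of −0.52 on the no-Cys diet and 0.11 on the no-Trp diet, where Idh1 was at 279, 336 and 305 CPM in Cse+/- and 333, 322 and 340 CPM in Cse-/- livers. On the no-Trp diet the groups overlap and no liver is as low as the 3 lowest Cse-/- no-Cys livers. Idh1 was the only one of the 8 called, in the lower direction in which 2.69% of all genes were called, and 0 were called in the higher direction, in which 1.67% were. The interaction stayed between −0.77 and −0.56 when each of the 14 livers was left out, but the edgeR adjusted p stayed under 0.05 only without av01, av08 or av19 and was 0.0612 to 0.108 without any other. In the same contrast 2 of 8 hepatocyte and 1 of 5 red-cell markers were called lower and 1 of 6 endothelial markers higher, and their part in the result on Idh1 was not tested. For Pgd the interaction was 0.07 with a 95% interval of −0.41 to 0.54 (edgeR adjusted p = 0.914), so that a difference of Pgd between genotypes that is particular to the no-Cys diet was not shown.

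Within Cse-/- mice, the no-Cys diet was compared with the no-Trp diet. Me1, Pgd and Tkt were higher on the no-Cys diet by 1.38-fold to 1.75-fold, and G6pdx, H6pd, Rpia and Taldo1 had log2 fold changes between −0.10 and 0.10. Of the 8, 3 were called higher by edgeR, where 5.05% of all genes were, and 0 lower, where 5.35% were. These comparisons and those above share the same Cse-/- no-Cys and no-Trp livers.

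Me1 was at 80.2, 111 and 105 CPM in the Cse-/- no-Trp livers, against 151 to 215 CPM on the no-Cys diet. The groups do not overlap, as for 2957 of the 14759 genes tested. The log2 fold change was 0.81 (SE 0.23, edgeR adjusted p = 0.028). Without av06, av14 or av16 it was 0.69, 0.68 or 0.86, with edgeR adjusted p of 0.0859, 0.142 or 0.0603.

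Pgd, at 30.7, 46.8 and 35.8 CPM on the no-Trp diet, overlaps the no-Cys range through av15 and av05. Its log2 fold change was 0.53 (SE 0.16, edgeR adjusted p = 0.0419). It was 0.51 with every library thinned to the depth of the shallowest (edgeR adjusted p = 0.0646), and 0.47, 0.37, 0.40 and 0.49 without av06, av08, av14 and av16, with edgeR adjusted p of 0.107, 0.108, 0.205 and 0.123. Tkt was at 117, 182, 157 and 151 CPM on the no-Cys diet, where the lowest liver, av05, falls inside the no-Trp range of 86.8 to 123 CPM. The log2 fold change of Tkt was 0.47 (SE 0.14, edgeR adjusted p = 0.0395), and without av06, av07, av14 or av16 the edgeR adjusted p was 0.126, 0.0794, 0.211 or 0.0558.

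The liver av14, with 15.8 CPM of fat-cell markers, is the lowest of the Cse-/- no-Trp livers for 6 of the 8 enzymes (Me1, Pgd, Tkt, G6pdx, H6pd and Taldo1), and av17, with 32.1 CPM, is the lowest of all 20 livers for Me1, Pgd and Tkt. Without av14 none of the 3 enzymes was called. Of the 4 fat-cell markers tested, 0 were called in the comparison of no-Cys with no-Trp Cse-/- livers. Other lists moved in it, with 4 of 8 hepatocyte, 3 of 5 red-cell and 1 of 5 bile duct markers called lower. Their sums on the no-Trp diet were 78460 to 86100, 119 to 184 and 27.6 to 46.2 CPM, against the no-Cys values above. The part of these markers in the results on Me1, Pgd and Tkt was not tested.

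Idh1 was lower on the no-Cys than on the no-Trp diet in Cse-/- livers by 0.37 on the log2 scale (SE 0.12), which did not pass in edgeR (adjusted p = 0.0576) and passed in DESeq2 (adjusted p = 0.0316). Without av08, the highest of the Cse-/- no-Cys livers, the log2 fold change was −0.51 with an edgeR adjusted p of 0.00392.

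BSO blocks glutathione synthesis while cysteine stays in the diet, and this comparison asks whether that alone moves the enzymes. None of the 8 was called by edgeR, where 0.488% of all genes were called higher and 0.305% lower. With an unadjusted p under 0.05 there were 0 of the 8 and 13% of all genes, and with DESeq2 0 of the 8 and 2.99% of all genes. The log2 fold changes ran from −0.09 (H6pd) to 0.22 (Tkt).

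In the livers given BSO, G6pdx was at 4.17, 4.42, 4.70 and 4.32 CPM, inside the range of the no-Trp livers at 2.76, 4.68 and 4.64 CPM except for the highest by a small margin. Pgd was at 42.7, 41.7, 39.6 and 38.3 CPM, all within the no-Trp range. Tkt was at 139, 121, 131 and 121 CPM, Me1 at 102, 108, 112 and 118 CPM and Idh1 at 278, 307, 311 and 355 CPM, each overlapping its no-Trp group. The 95% intervals of the log2 fold change were −0.22 to 0.48 for G6pdx, −0.23 to 0.44 for Pgd, −0.08 to 0.51 for Tkt, −0.16 to 0.17 for Taldo1, −0.31 to 0.62 for Me1 and −0.34 to 0.17 for Idh1. Among NRF2 targets, Nqo1, an NADPH-using quinone reductase, was at 5.74 to 8.37 CPM without and 13.3 to 30.7 CPM with BSO, a log2 fold change of 1.87 (SE 0.26, edgeR adjusted p = 0.00154) that lies above all 6 intervals. Targets with smaller changes lie within some of them, such as Txnrd1 (0.57) within that of Me1 and Gclm (0.31) and Hmox1 (0.27), neither called, within those of G6pdx, Pgd, Tkt and Me1.

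Both the no-Cys diet and the no-Trp diet with BSO withhold an amino acid, and they were compared directly in Cse-/- mice. No enzyme was called by edgeR, where 1.33% of all genes were higher with the no-Cys diet and 1.42% were lower. The unadjusted p was under 0.05 for 3 of the 8 enzymes, Pgd, Me1 and Idh1, and for 20% of all genes, and DESeq2 called 1 of the 8, Me1, and 6.05% of all genes. Me1 was at 151 to 215 CPM on the no-Cys diet and at 102 to 118 CPM with BSO. These groups do not overlap, as for 12.7% of all genes, and the log2 fold change of Me1 was 0.66 (95% interval 0.23 to 1.09, edgeR adjusted p = 0.0832, DESeq2 adjusted p = 0.0308). The log2 fold change was 0.42 for Pgd (95% interval 0.11 to 0.73, edgeR adjusted p = 0.117), or 0.27 without av08, and −0.29 for Idh1 (95% interval −0.53 to −0.05, edgeR adjusted p = 0.169). Without av08 that of Idh1 was −0.43 (edgeR adjusted p = 0.0141). The other 5, G6pdx, H6pd, Rpia, Tkt and Taldo1, had log2 fold changes from −0.15 for G6pdx to 0.25 for Tkt, which was 0.16 without av06. In this comparison 3 of 8 hepatocyte and 2 of 5 bile duct markers were called lower, and their part in the results on Me1 and Idh1 was not tested. Of all genes, edgeR called 196 higher and 210 lower, but 463 and 564 without av08 and 34 and 18 without av06.

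In Cse+/- mice, which can make cysteine, the no-Cys diet was compared with the control diet. Me1 was higher by 2.33-fold on the no-Cys diet, and no other enzyme was called. The pair of control livers had 94.8 and 104 CPM of Me1, and the lowest no-Cys liver had 161 CPM, so the groups do not overlap, as for 25.6% of all genes. The log2 fold change of Me1 was 1.22 (SE 0.27, edgeR adjusted p = 0.0187). It was 1.02 without av02 (edgeR adjusted p = 0.0515), the liver with 319 CPM, and 1.15 or 1.28 with a single control liver, av22 or av21, left (edgeR adjusted p = 0.139 or 0.233), where the lone liver is assumed to vary like those of the other groups. Called higher were 1 of the 8, against 0.989% of all genes, and lower 0, against 1.19%. Pgd was at 28.6 and 27.5 CPM in the control livers, below all 4 no-Cys livers, with a log2 fold change of 0.47 (95% interval 0.08 to 0.86, edgeR adjusted p = 0.206). The other 6 had log2 fold changes from 0.05 for G6pdx to 0.41 for Rpia, which was 0.24 without av04. In all, 4 of the 8 had groups that do not overlap, Me1, Pgd, Rpia and Tkt. Besides Me1, only Pgd of the 8 had an unadjusted p under 0.05, as did 16.6% of all genes, and DESeq2 called Me1 alone of the 8 and 4.41% of all genes. Of the marker lists, 1 of 5 bile duct markers was called lower, and 0 of 8 hepatocyte and 0 of 8 Kupffer cell markers were called, with median log2 fold changes of −0.31 and 0.31. The part of these in the result on Me1 was not tested.

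The no-Trp diet against the control diet in Cse+/- mice, which shares the same pair of control livers, gave no call among the 8, where 0.00678% of all genes were called higher and 0.0407% lower. H6pd and Tkt, 2 of the 8, reached an unadjusted p under 0.05, as did 9.29% of all genes, and 0 of the 8 and 0.459% of all genes were called by DESeq2. Tkt was at 124 and 121 CPM on the control diet and 69.4, 89.2 and 87.3 CPM on the no-Trp diet. The groups lie apart, as for 27.4% of all genes in this comparison of 3 livers with 2, and the log2 fold change was −0.58 (95% interval −0.92 to −0.23, edgeR adjusted p = 0.255), or −0.46 without av17. The groups did not overlap for 5 of the 8 enzymes. For H6pd it was 0.39 (95% interval 0.05 to 0.73, edgeR adjusted p = 0.471), and for Me1 −0.05 (95% interval −0.61 to 0.50). The other 5 had log2 fold changes from −0.19 for Taldo1 to 0.32 for Rpia.

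Me1 was high in both genotypes on the no-Cys diet. It was at 151 to 319 CPM (median 175) in the 8 livers on the no-Cys diet and at 65.2 to 136 CPM (median 105) in the 12 other livers, without overlap. Among all genes tested, 8 (0.0542%) had all no-Cys livers above all others, and 5 (0.0339%) had them below. This pattern was looked for after the values had been seen. The other 7 genes that lay above were Arsg, Col15a1, Ddx58, Grb14, Itga8, Lrp5 and Mcu, and those that lay below were Cyp2e1, Emc3, Slc2a1, Trib1 and Zfp703. The no-Cys libraries were among the shallower ones, with overlapping depths, and with every library thinned to the shallowest Me1 was still called in both comparisons above in which edgeR called it, while Pgd was not in the comparison of no-Cys with no-Trp Cse-/- livers.

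Other genes of NADPH metabolism show what surrounds these enzymes, and the lists were chosen with earlier results of these data known. Of 10 further genes of the pentose phosphate pathway that could be tested, of 13, 3 rose and 2 fell in the no-Cys livers of Cse-/- compared with Cse+/- mice, where 11.6% and 12.2% of all genes did, and the median of their log2 fold changes was 0.03. Pgls, the lactonase that acts between G6pdx and Pgd, rose by 0.35 (SE 0.085, edgeR adjusted p = 0.00577), Prps1 by 0.31 and Shpk by 0.29. Prpsap2 and Prps2, of the synthesis of phosphoribosyl pyrophosphate, fell by 0.51 and 0.42. With BSO, none of the 10 was called.

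A further list held other genes whose enzymes can make NADPH or phosphorylate NAD, although the cofactor they used in these livers was not measured. Of these, 11 of 12 were tested, with 3 higher and 3 lower, where 11.6% and 12.2% of all genes were. Of the mitochondrial folate enzymes, Mthfd2 rose by 3.71 (SE 0.39, edgeR adjusted p = 3.20e-06) and Aldh1l2 by 2.88 (SE 0.47, edgeR adjusted p = 2.48e-04) on the log2 scale. Nnt rose by 0.32 (edgeR adjusted p = 0.00595). Mthfd2l, also a mitochondrial folate enzyme, Nadk2 and Glud1 fell by 0.75, 0.38 and 0.34. With BSO, none of the 11 was called, and Mthfd2 had a log2 fold change of 0.57 (SE 0.38, edgeR adjusted p = 0.558).

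On the side of NADPH use, 8 of 12 reductases were higher and 4 lower in Cse-/- no-Cys livers (11.6% and 12.2% of all genes), with a median log2 fold change of 0.57. The carbonyl reductases Cbr3 and Cbr1 rose by 2.92 and 1.14, Nqo1 by 2.29 and Gsr, which regenerates glutathione with NADPH, by 1.00 (SE 0.14, edgeR adjusted p = 5.20e-05). Ptgr1 fell by 2.38, and Txnrd2 and Akr1c6 fell by 0.56 and 0.47. With BSO, 6 of the 12 rose and 0 fell (0.488% and 0.305% of all genes), led by Cbr3 (1.92), Nqo1 (1.87), Blvrb (0.93) and Gsr (0.90, edgeR adjusted p = 0.00507). In that comparison none of the 8 enzymes that supply or support NADPH was called.

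Of 15 tested genes of the NRF2 axis, which holds NRF2, its inhibitor KEAP1 and typical targets, 12 were higher and 1, Nfe2l2 itself (−0.41), lower in Cse-/- no-Cys livers (11.6% and 12.2% of all genes), with a median log2 fold change of 1.60. Gsta1 (3.11), Gsta2 (2.90), Abcc4 (2.75) and Gstm3 (2.46) led. With BSO 9 were higher and 0 lower (0.488% and 0.305% of all genes), with a median of 1.33, led by Gstm3 (2.23), Gstm1 (2.03), Nqo1 (1.87) and Gsta2 (1.72). The NRF2 and reductase lists share Nqo1 and Txnrd1, and several of the targets had been named as stress genes by the study on liver libraries, so their direction is not independent evidence.

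Of 14 lipogenic genes, 8 were lower and 0 higher in Cse-/- no-Cys livers (12.2% and 11.6% of all genes), with a median log2 fold change of −0.61. Scd1, the stearoyl-CoA desaturase, fell by 4.37, Pnpla3 fell by 2.08, Thrsp fell by 1.93, and Srebf1, which encodes the lipogenic transcription factor SREBP1, fell by 1.69 (SE 0.27, edgeR adjusted p = 2.25e-04). With BSO, 3 fell, Scd1 (−2.98), Thrsp (−2.02) and Acacb (−1.17), and 0 rose (0.305% and 0.488% of all genes). In the Cse+/- comparison of the no-Cys with the control diet, where Me1 rose, 2 lipogenic genes rose and 0 fell (0.989% and 1.19% of all genes).

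**Figure D3:**
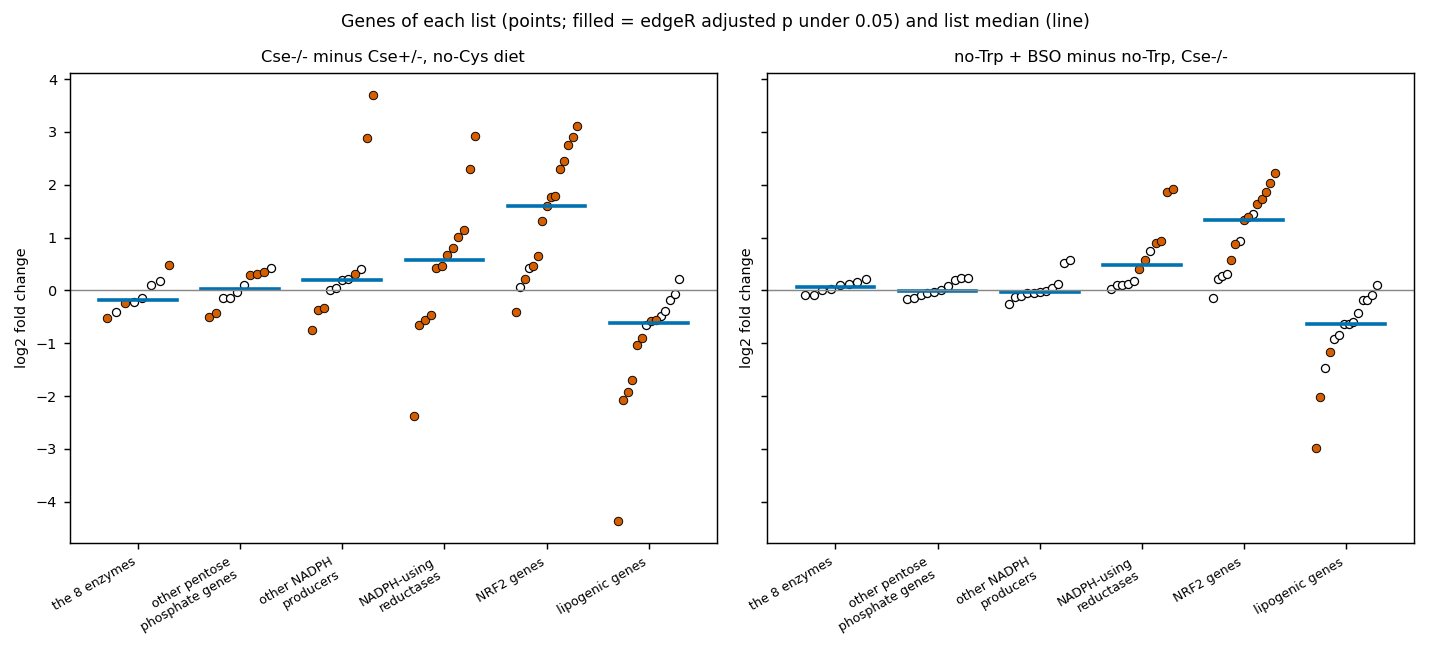
Log2 fold change (vertical axis) of each gene of 6 lists, in Cse-/- against Cse+/- livers on the no-Cys diet (left) and with BSO against without on the no-Trp diet in Cse-/- livers (right). Filled points have an edgeR adjusted p under 0.05 and blue lines are list medians. The 8 enzymes lie within −0.52 and 0.49 on the left and −0.09 and 0.22 on the right, while the medians of the NRF2 genes are 1.60 and 1.33.

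The enzymes varied among themselves in pairs. Over the 20 livers, Pgd and Tkt varied together with a Pearson r of 0.77 (Spearman rho 0.73) in log2 CPM, which stayed at 0.76 without the 2 livers farthest from the median of Pgd and at 0.74 once the mean of each group was removed. Tkt and Me1 had an r of 0.71, or 0.55 with group means removed, and Pgd and Me1 0.55, or 0.45. The lowest r was −0.39, between H6pd and Me1. These are descriptions of livers that share groups and libraries, and no test was made.

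Beside a stress gene and a lipogenic gene, Pgd had an r of 0.64 with Nqo1 over the 20 livers, which was 0.016 once group means were removed. Idh1 had an r of 0.86 with Srebf1 (Spearman rho 0.76), 0.71 without the 2 livers farthest from the median of Srebf1, and 0.61 with group means removed. These pairs were picked from those of the enzymes with Nqo1, Srxn1, Srebf1 and Fasn, and that of Idh1 with Srebf1 had the highest r. The other enzymes had r with Srebf1 from −0.36 for Pgd to 0.44 for Taldo1. With Nqo1 the r of the enzymes ran from −0.57 for Idh1 (−0.15 with group means removed) to that of Pgd. The lowest Srebf1 levels, 37.1, 51.0 and 73.7 CPM in av05, av07 and av06, were in the same livers as the 3 lowest Idh1 levels, and av08, the Cse-/- no-Cys liver with 106 CPM of Srebf1, was also the one with the highest Idh1 of its group.

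The tested genes whose pattern over the 20 livers was most like that of each enzyme were found by the same r, up to 3 for an enzyme. For Idh1 they were Afm (0.90), Ces1e (0.89) and Timd2 (0.89), and for Me1 they were Nr3c2 (0.89), Grb14 (0.83) and Itga8 (0.82). For Pgd they included Tkfc (0.89) and Ehd1 (0.87), and for Tkt Gnb1l (0.90), Spata2l (0.85) and Hdac8 (0.85). For Taldo1 they were Xylt2 (0.92), Tpst1 (0.82) and Tiam1 (0.82). G6pdx, H6pd and Rpia had no gene above 0.81.

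**Figure D4:**
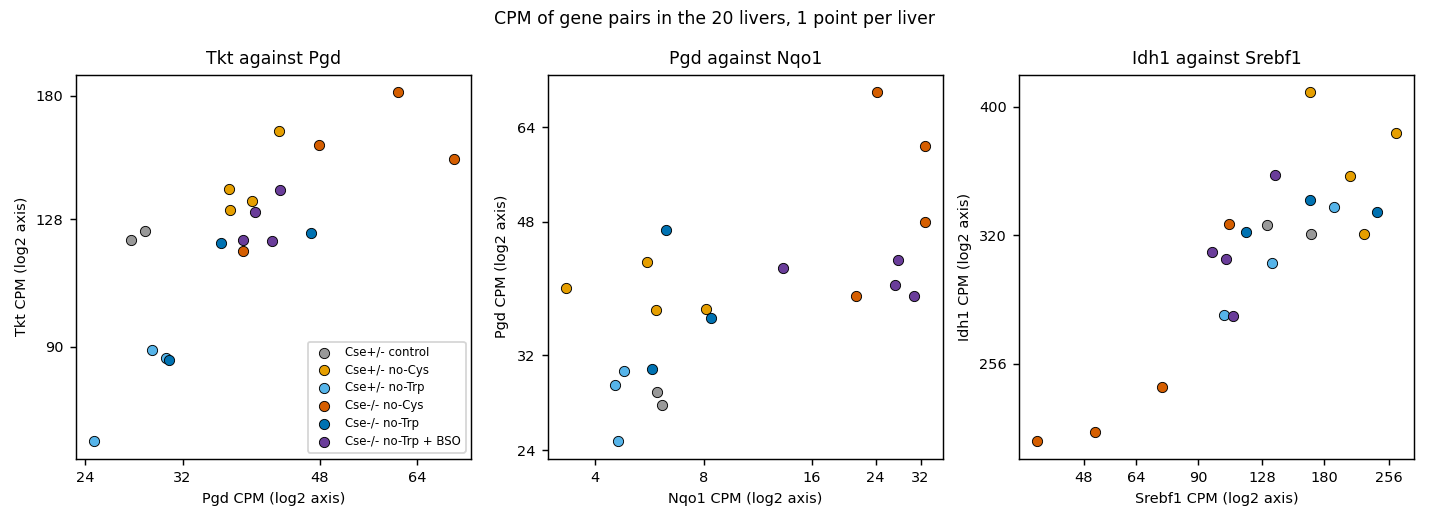
CPM of Tkt against Pgd, Pgd against Nqo1 and Idh1 against Srebf1, both axes on a log2 scale, with 1 point per liver coloured by group. Tkt rises with Pgd within and between groups (r 0.77), the BSO livers have 13.3 to 30.7 CPM of Nqo1 and 38.3 to 42.7 CPM of Pgd, and the 3 lowest Idh1 levels belong to the Cse-/- no-Cys livers with the lowest Srebf1 (r 0.86).

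Since NRF2 acts through antioxidant response elements, the promoter windows of RefSeq (GRCm38.p6, 250 bases before to 50 after each start) were searched on both strands for the core letters TGACNNNGC. All 8 enzymes had a window, 11 in all. The letters were in 12.4% of 32851 windows of all genes, or in a window of 14.0% of 27025 genes, and in a window of G6pdx, Me1 and Pgd, but in none of Idh1, Tkt, Taldo1, Rpia or H6pd, nor of Nqo1. The stretches of 29 bases around the 3 matches are given with that of Srxn1, an NRF2 target, for comparison, on the strand of each gene and with the matched letters in capitals.
G6pdx: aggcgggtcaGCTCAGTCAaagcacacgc
Me1: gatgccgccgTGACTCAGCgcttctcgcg
Pgd: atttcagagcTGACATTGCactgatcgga
Srxn1: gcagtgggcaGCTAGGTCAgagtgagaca

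The G6pdx stretch is at chrX:74428919-74428947, with its match on the opposite strand, 57 to 49 bases before the start. The Me1 stretch is at chr9:86695902-86695930 and its match spans the start, from base −6 to 2. The Pgd stretch is at chr4:149166061-149166089 with its match at bases 3 to 11 after an inner start, and the Srxn1 stretch is at chr2:152105542-152105570 with its match on the opposite strand. Between the no-Cys livers of Cse-/- and Cse+/- mice the log2 fold changes of the 3 enzymes with the letters were −0.23 for G6pdx, −0.42 for Me1 and 0.49 for Pgd, of which edgeR called the last, and that of Srxn1 was 1.77. None of the 8 had the letters TGATGNAAT of C/EBP-ATF response elements (0.965% of all windows), TCACNCCAC of sterol response elements (1.24%) or the E-box CACGTG (7.15%). A match is a description of letters, and the absence of one says only that they are not in these windows.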

How the data were processed

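Paired-end libraries of poly(A) mRNA were made from whole livers. The authors aligned reads to GRCm38 with HISAT2 2.1.0, counted them on genes with HTSeq 0.11.0 and deposited raw counts. The annotation release and strand setting are not given in the sources used here. Of 21 columns, 20 were used, mapped to groups through the study's list of mice, and 1, with no listed condition, was not. Symbols and coordinates are from GENCODE vM21. Genes were filtered with filterByExpr (minimum count 10, minimum total 15), scaled with TMM factors and fitted with edgeR 4.0.16 (R 4.3.3) in 1 quasi-likelihood model of all 20 livers and 6 groups, with two-sided p-values adjusted by Benjamini–Hochberg over 14759 genes. Alternatives were DESeq2 1.42.0, RLE and upper-quartile factors, other filters, only the groups compared, thinning, a threshold of 0.01 and leaving out each liver. Pairs of livers of 1 group differed by more than counting noise (chi-square per gene 9.60 to 64.2). Littermates served as experimental and control mice where the authors could arrange it, but no source used here assigns the livers to litters or days. Log2 CPM for correlations used a prior count of 2. On simulated counts for the Cse-/- and Cse+/- no-Cys groups (14522 genes), 77% of 2-fold and 93% of 4-fold changes were recovered, with 4 false calls. For BSO against no-Trp (14493 genes) these were 65%, 93% and 7, and for no-Trp against control (14491 genes) 61%, 93% and 5. The 8 genes, the lists and the rule for named genes (all 8 enzymes in each comparison, and up to 4 called genes a direction per list) were chosen with earlier results of these data known. The values of some genes that this rule names are not reported here.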

Additional observations from a re-analysis of the deposited data

Results flagged for a closer look

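Taldo1 in the Cse-/- no-Cys liver av06, at 100.9 CPM, stands apart from the other 3 livers of its group, which are within 90.3 and 91.4 CPM. Of the 24 sets of 4 livers examined for such a gap (8 enzymes in 3 groups), 1 was marked, and chance marks about 1 in 20.

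The genotype difference of Idh1 differed between the no-Cys and the no-Trp diet, by −0.63 on the log2 scale in the interaction test (edgeR adjusted p = 0.045). All 4 Cse-/- no-Cys livers were below the mean of the Cse+/- no-Cys livers.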

How the results depend on the processing

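No paired analysis was possible because the columns of the table of counts carry mouse numbers and not the replicate numbers of the labels. The precision is limited by 2 to 4 livers a group and, for G6pdx and Rpia, by 39 to 239 counts per library, and the simulation did not measure how often changes under 2-fold are found. Over all genes, leaving out each liver moved the number called higher or lower by over 1.5 times in every comparison but that of genotypes on the no-Cys diet (1291 to 1676 higher, 1259 to 1824 lower), for example in no-Cys against control (3 to 197 higher, 7 to 222 lower) and no-Cys against BSO (34 to 463 higher, 18 to 564 lower). Of the 8 enzymes, edgeR's calls changed as follows, and the cause was not tested unless the setting itself gives it. With an adjusted p under 0.01, 0 were higher and 1 lower (Idh1) between genotypes on the no-Cys diet, 0 were higher in the no-Cys against no-Trp comparison of Cse-/- livers, 0 higher in the no-Cys against control comparison, and 0 lower in the interaction. In fits of only the groups compared, with fewer livers, these counts were 0 and 1, 1, 0 and 0, and 1 (Me1) was higher on the no-Cys diet than with BSO. Without a filter on low counts 1 was lower between genotypes on the no-Cys diet and 1 (Me1) was higher on the no-Cys diet than with BSO, as with DESeq2 (1). Thinning ended the call of Pgd for no-Cys against no-Trp in Cse-/- livers (0.51, adjusted p = 0.0646), leaving 2 higher. With upper-quartile factors and with DESeq2, 1 (Idh1) was lower in no-Cys than no-Trp Cse-/- livers. Leaving out each liver gave 0 to 1 higher and 1 to 2 lower between genotypes on the no-Cys diet, 0 to 3 higher and 0 to 1 lower for no-Cys against no-Trp, 0 to 1 lower for no-Cys against BSO, 0 to 1 higher for no-Cys against control and 0 to 1 lower in the interaction. No enzyme that edgeR called changed its sign. Of those not called, Taldo1 with BSO turned from 0.0044 to −0.0024 (RLE factors), −0.0148 (upper-quartile factors), −0.0013 (only the groups compared) and −0.0021 (DESeq2), and thinning turned Pgd in no-Trp against control livers to −0.0179 and the interaction of Rpia to −0.0065. Leaving out each liver took the log2 fold change through 0 in these uncalled results. Between genotypes on the no-Cys diet it ran from −0.2818 to 0.0301 for Rpia and from −0.0088 to 0.2126 for Tkt. For no-Cys against no-Trp in Cse-/- livers it ran from −0.2377 to 0.0981 for G6pdx, −0.1005 to 0.2953 for Rpia and −0.0555 to 0.0077 for Taldo1. With BSO it ran from −0.0915 to 0.2444 for G6pdx, −0.0286 to 0.2751 for Pgd, −0.2203 to 0.0052 for H6pd, −0.1803 to 0.2162 for Rpia and −0.0371 to 0.0409 for Taldo1. For no-Cys against BSO it ran from −0.1396 to 0.0582 for H6pd, −0.0757 to 0.198 for Rpia and −0.0542 to 0.0238 for Taldo1. Between genotypes on the no-Trp diet it ran from −0.1418 to 0.194 for G6pdx, −0.1458 to 0.0977 for H6pd, −0.3691 to 0.0273 for Rpia, −0.0211 to 0.0418 for Taldo1 and −0.1702 to 0.3873 for Me1. Against the control diet it ran from −0.0097 to 0.1177 for G6pdx on the no-Cys diet, and from −0.0487 to 0.0982 for Pgd and −0.3908 to 0.1678 for Me1 on the no-Trp diet. In the interaction it ran from −0.0892 to 0.2509 for Pgd and −0.1754 to 0.2209 for Rpia.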
